A study of Mus musculus with 30 samples.

Results

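Among the genes whose RNA ran lower in mouse brain without interleukin-34 (IL-34) are 7 that still carry provisional names: Gm2629, BC035044, 8030442B05Rik, Gm3739, Gm2237, Gm11523 and Gm36736. They are 7 of the 51752 genes in the count table, selected on their own lower levels in the same libraries when IL-34 was deleted or blocked, and found in the table by name. Below, "without IL-34" stands for either the deletion or the blocking antibody. Their differences between arms with and without IL-34 are therefore given as a description. For them no p is printed, and how many passed the threshold of the fit across all genes is set beside the share or number of all genes that did. The count table lists Gm3739, Gm2237 and BC035044 as protein-coding genes and the other 4 as long noncoding RNA (lncRNA) genes. The 30 libraries come from 15 mice of 2 separate experiments. In the deletion experiment the controls were Il34 heterozygotes (Het, 4 animals), which carry 1 targeted copy of the gene, and the test arm was the Il34 knockout (KO, 3 animals). In the antibody experiment wild-type mice were given a blocking antibody against IL-34 (anti-IL34, 4 animals) or a control antibody against gp120 (anti-gp120, 4 animals). Each mouse gave 1 library of whole forebrain from one hemisphere and 1 library of CD11b-positive cells, captured on magnetic beads to enrich microglia, from the other. Both sexes were present in each arm, with 1 male among the KO animals (animal 3) and 1 female among the anti-IL34 animals (animal 11). The age of the mice, the allele behind the deletion, and the dose and timing of the antibodies are not given in the sources used here.

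IL-34 is a secreted ligand of CSF1R, the receptor on which microglia depend for survival, and neurons are its main source in the forebrain. Loss of IL-34 is known to lower the number of microglia in the cortex and other grey matter, where CSF1, the other CSF1R ligand, makes up for it only in part. A provisional name (a Gm number, a clone name ending in Rik or a cDNA number) marks a gene that was annotated from sequence and has no assigned function. Many such genes are lncRNAs, which are transcribed and spliced like messenger RNA but have no recognised protein product, and others are recent copies within multigene families.

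The 7 genes lie on 6 chromosomes, and their sequences decide how far a short read can be assigned to them. Positions are from GENCODE M21 on GRCm38. Gm3739 (chr14:7293648-7315049, minus strand, 7 exons) and Gm2237 (chr14:19563800-19585135, minus strand, 8 exons) belong to a large cluster of near-identical genes on proximal chromosome 14. In a search of the GENCODE transcripts, 73 other genes matched Gm3739 and 72 matched Gm2237 at 90% identity or more over at least 50% of the member's longest transcript, all of them on chromosome 14. At 95% identity there were 37 for each. Of all 50-base windows in the transcript, 79.05% in Gm3739 and 83.0% in Gm2237 also occurred, letter for letter, in another annotated gene. For 100-base windows the shares were 58.16% and 63.59%, and the read length is not given in the sources used here. Their transcripts aligned over 1939 bases with 35 substitutions, an identity of 98.19%, and the longest run without a difference was 276 bases. Whether the other copies hold either version of the stretch shown next was not tested. This coding stretch of 60 bases, where a read can tell Gm3739 from Gm2237, carries 4 differences, in capitals.
Gm3739: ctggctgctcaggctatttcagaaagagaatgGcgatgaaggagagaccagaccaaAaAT
Gm2237: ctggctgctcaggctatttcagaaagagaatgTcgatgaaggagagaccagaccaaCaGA
The stretch lies at chr14:7300285-7300344 in Gm3739 and at chr14:19570383-19570442 in Gm2237, both on the minus strand.

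The other 5 genes had no near-identical copy. BC035044 (chr6:128849090-128891126, minus strand, 3 exons) lies in the natural killer gene complex and its span overlaps that of Clec2i, a C-type lectin gene on the opposite strand, without sharing exon bases. Gm2629 (chr18:15194782-15214696, plus strand, 2 exons) is a lncRNA whose nearest neighbour on one side is Kctd1. The noncoding locus Gm50035, on the opposite strand, overlaps 33.5% of the Gm2629 span without sharing exon bases and had 26 counts over 30 libraries. 8030442B05Rik (chr2:11338366-11398501, minus strand, 3 exons) is a lncRNA with small noncoding loci inside its span, of which Gm13293, on the opposite strand, had the most counts (1299 over 30 libraries, against 14089 for 8030442B05Rik). Gm11523 (chr11:96862997-96873954, minus strand, 4 exons) is a lncRNA between Copz2 and Cdk5rap3. Gm36736 (chr7:121314810-121393101, minus strand, 3 exons) is an antisense lncRNA that starts inside Hs3st2, the gene of a heparan sulfate 3-O-sulfotransferase expressed in neurons. BC035044, Gm2629 and Gm11523 shared no 50-base window with another gene, 8030442B05Rik shared 4.26% of its windows but no window of 100 bases, and Gm36736 shared 38.02% (32.36% for windows of 100 bases), all with Hs3st2 read in the opposite direction.

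The counting treated overlapping genes by strand, as inferred from genes that lie inside others, since the strand setting is not given in the sources used here. Genes lying inside another gene on the same strand had 0 counts in 5150 of 5154 cases, against 29.5% of the 5443 genes that lie inside a gene on the opposite strand only. The loci inside the spans of BC035044 and 8030442B05Rik on their own strand (Gm44078, Gm37730 and 4933403L11Rik) were accordingly at 0. As a measure of how many reads land on the wrong strand, P2ry12, one of the most abundant microglial genes, lies inside Med12l on the opposite strand. Med12l counts in the 15 isolates summed to 5.13% of those of P2ry12, its own reads included, and ran from 3.19% to 11.0% over single isolates. In forebrain Med12l counts were 256% of those of P2ry12, so the measure cannot be used there.

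For 2 of the single-copy genes, RefSeq (GRCm38.p6) and GENCODE place the start within 2 bases of each other, and the 250 bases before the RefSeq start are shown because both genes were found at much higher level in the isolates than in forebrain. They were searched on both strands for GAGGAAGT, a sequence bound by the myeloid factor PU.1, for its inner part GGAAGT, the core read by ETS factors in general, and for the AP-1 site TGAGTCA. Capitals mark GGAAGT or its reverse complement, and in BC035044 also the full GAGGAAGT on the reverse strand, which contains one of the GGAAGT matches.
BC035044: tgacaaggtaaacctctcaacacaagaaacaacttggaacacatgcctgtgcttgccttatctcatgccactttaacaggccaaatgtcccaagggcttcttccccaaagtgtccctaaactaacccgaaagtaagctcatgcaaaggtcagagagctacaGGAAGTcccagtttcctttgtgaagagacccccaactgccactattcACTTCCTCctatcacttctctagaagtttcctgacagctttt
8030442B05Rik: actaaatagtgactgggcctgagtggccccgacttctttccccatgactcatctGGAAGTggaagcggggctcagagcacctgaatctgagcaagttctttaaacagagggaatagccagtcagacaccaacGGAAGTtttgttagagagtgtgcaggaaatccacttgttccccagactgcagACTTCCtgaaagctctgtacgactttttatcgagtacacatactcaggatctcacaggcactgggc
The windows are chr6:128891125-128891374 and chr2:11398501-11398750, both on the minus strand. BC035044 held GAGGAAGT once, starting 42 bases before the start, a match found in 2.44% of the 32851 promoter windows in the RefSeq table, and GGAAGT at 2 places. 8030442B05Rik held GGAAGT at 3 places, where 19.74% of all windows hold it at least once, and TGAGTCA once, found in 4.46% of windows. The windows of Gm3739, Gm11523 and Gm36736 held none of these motifs, but their RefSeq starts lie 196, 6669 and 55888 bases from the GENCODE ones. A match is a description of the letters and not a bound site.

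Library totals ran from 15064391 to 75158213 counts. Levels below are CPM, a gene's counts per 1000000 counts of its library, with library sizes scaled by TMM over all 30 libraries. In forebrain, Il34 RNA was at 21.0 ± 2.53 CPM in Het (SD, n = 4) and 7.46 ± 0.883 CPM in KO (SD, n = 3), and at 35.0 ± 3.24 CPM with anti-gp120 and 36.4 ± 2.16 CPM with anti-IL34 (SD, n = 4 each). In the isolates its levels overlapped between Het (5.06 to 10.3 CPM) and KO (5.17 to 7.04 CPM), and the difference did not pass (log2 fold change -0.27, SE 0.270, adjusted edgeR p 0.493). A list of 18 homeostatic microglia genes, of which 17 were found by symbol, was used to place the members against microglial RNA in general. This list, like the others below, was drawn up with earlier results of these data known. By edgeR all 17 were higher in control isolates than in control forebrain, where 40.8% of all genes were, with a median log2 difference of 5.45. In forebrain 14 of the 17 were lower in KO (median log2 fold change -1.34) and 14 under anti-IL34 (-1.47), where 0.615% and 0.525% of all genes were. In the isolates 16 were lower in KO (-1.63) and 11 under anti-IL34 (-1.21), where 5.22% and 0.603% of all genes were. Other lists moved in forebrain too. In KO forebrain 3 of 5 oligodendrocyte lineage genes were called lower (median -0.37), and the list summed to 3670 to 3982 CPM in KO against 4608 to 5392 CPM in Het, without overlap. In antibody forebrain its median was -0.12 and its sums overlapped. The 7 border macrophage genes summed to 7.52 to 16.9 CPM with anti-IL34 against 17.05 to 26.5 CPM with anti-gp120, without overlap, and to 11.9 to 15.99 CPM in KO against 15.3 to 20.1 CPM in Het. Their medians were -0.55 under the antibody and -0.41 in the KO, with 0 genes past the edgeR threshold in either, 2 and 2 at an unadjusted p under 0.05, and 1 and 0 called by DESeq2. Of all genes tested, 833 of 17143 and 1441 of 19343 had an unadjusted p under 0.05, and DESeq2 called 198 and 178. The part of these lists in the members' forebrain differences was not tested. In bulk libraries such as these, fewer cells of a type and less RNA per cell cannot be told apart.

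**Figure D1:**
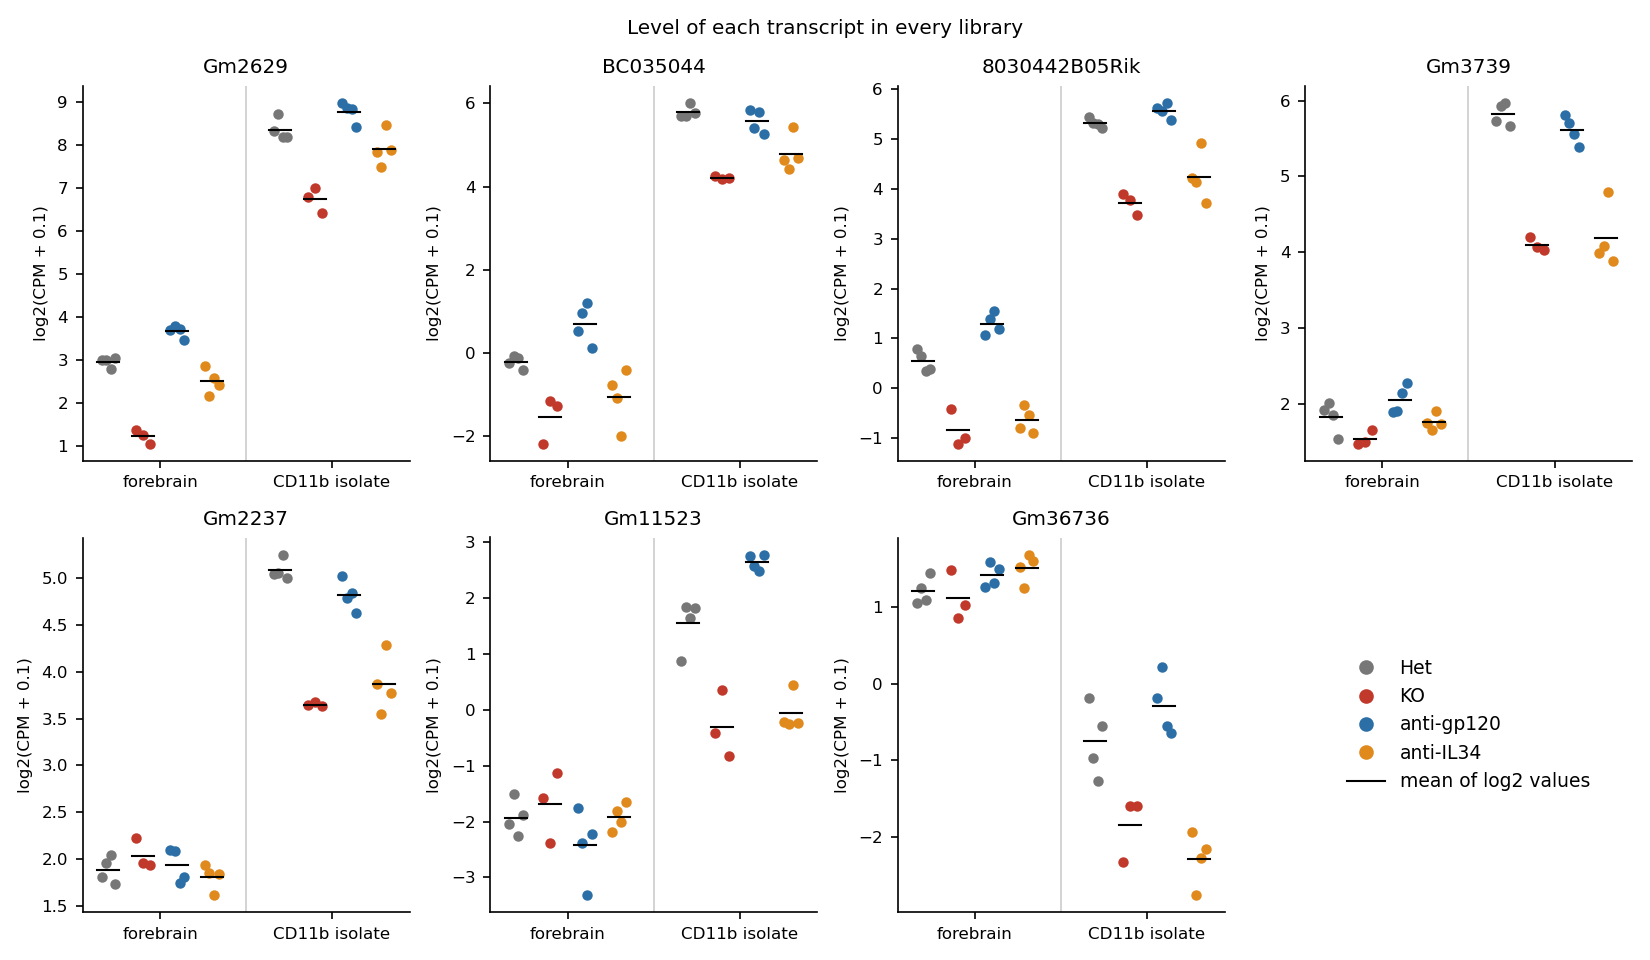
Level of each transcript, as log2(CPM + 0.1), in every library of the 4 arms, with forebrain on the left of each panel and CD11b isolates on the right; each point is 1 animal and the line is the mean of the log2 values. Gm2629, BC035044 and 8030442B05Rik run lower without IL-34 in both tissues, although in the isolates the antibody arms of Gm2629 and BC035044 overlap. Gm3739, Gm2237 and Gm11523 run lower in the isolates, and Gm36736 is the gene with more RNA in forebrain than in the isolates.

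Control animals were compared first, since the difference between isolates and forebrain was not used to choose the genes, although the control libraries themselves entered the contrasts that were. In the 8 control animals 6 of the 7 were higher in the isolates and 1, Gm36736, was higher in forebrain (edgeR quasi-likelihood test, Benjamini-Hochberg adjusted p under 0.05). The background is high, since 40.8% of the 18752 genes tested were called higher and 43.3% lower in the isolates. BC035044 was 47.8-fold higher in the isolates (log2 5.58, SE 0.230, adjusted edgeR p 1.89e-12) and Gm2629 was 38.8-fold higher (log2 5.28, SE 0.127, adjusted edgeR p 1.43e-14). These sizes are close to the median of the homeostatic list. 8030442B05Rik was 24.3-fold, Gm3739 14.3-fold and Gm2237 8.48-fold higher. The 27.2-fold value of Gm11523 (log2 4.77, SE 0.295) rests on 0 to 15 counts per control forebrain library. With 1 animal left out its log2 difference ran from 4.60 to 4.98 and that of 8030442B05Rik from 4.54 to 4.70, so these genes cannot be ordered. Gm36736 stood at 26.0% of its forebrain level in the isolates (log2 -1.94, SE 0.180, adjusted edgeR p 3.81e-08), while Hs3st2, in which it starts, had a log2 difference of -2.63 (SE 0.155, adjusted edgeR p 1.40e-10). Each of the 7 was on the same side in 8 of 8 fits that left out 1 animal.

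Per kilobase of gene span, the length over which the reads were counted, Gm2629 was the most abundant in the isolates of anti-gp120 mice at 22.3 CPM per kb. Gm3739 followed at 2.29, Gm2237 at 1.32, BC035044 at 1.15, 8030442B05Rik at 0.786, Gm11523 at 0.566 and Gm36736 at 0.00949 CPM per kb (means, n = 4). The ranges over animals of Gm2237 (1.16 to 1.51) and BC035044 (0.907 to 1.36 CPM per kb) overlapped, and those of the other neighbours in this order did not. Spans include introns, so a long gene with few exon bases reads low on this scale.

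Gm2629, BC035044 and 8030442B05Rik ran lower without IL-34 in both tissues. In forebrain, Gm2629 stood at 7.96, 7.87, 6.89 and 8.25 CPM in the 4 Het animals and at 2.49, 2.31 and 1.98 CPM in the 3 KO animals. With the antibodies it was at 13.01, 13.8, 13.2 and 11.02 CPM under anti-gp120 and at 7.22, 4.41, 5.91 and 5.23 CPM under anti-IL34. Neither pair of arms overlapped. Across the experiments, only the anti-IL34 forebrain at 7.22 CPM lay within the Het range of 6.89 to 8.25 CPM, and the rest of that arm lay below it. The fitted log2 fold change was -1.75 (SE 0.117) for KO against Het and -1.18 (SE 0.157) for anti-IL34 against anti-gp120, which are levels of 29.7% and 44.3% of control. The KO forebrains held the lowest levels of the 4 arms.

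BC035044 was a rare transcript in forebrain, with 34 to 47 counts per Het library and 17 to 102 per anti-gp120 library. It stood at 0.740, 0.841, 0.823 and 0.643 CPM in Het forebrain and at 0.118, 0.345 and 0.314 CPM in KO forebrain (log2 fold change -1.55, SE 0.346). Under anti-gp120 it was at 1.33, 1.83, 2.19 and 0.981 CPM and under anti-IL34 at 0.481, 0.373, 0.148 and 0.653 CPM (log2 fold change -1.96, SE 0.376). The arms did not overlap in either experiment, although the lowest libraries held 4 counts (KO animal 3) and 3 counts (anti-IL34 animal 11). 8030442B05Rik stood at 1.64, 1.47, 1.17 and 1.21 CPM in Het forebrain and at 0.652, 0.363 and 0.404 CPM in KO forebrain. Under anti-gp120 it was at 1.99, 2.52, 2.82 and 2.19 CPM and under anti-IL34 at 0.481, 0.699, 0.591 and 0.436 CPM. The log2 fold changes of this lncRNA were -1.51 (SE 0.257) in the KO and -1.99 (SE 0.227) under the antibody, again without overlap of the arms.

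By the threshold of an adjusted p under 0.05, 2 of the 7 genes (Gm2629 and 8030442B05Rik) were called lower in KO forebrain by edgeR, where 0.615% of all genes tested were called lower. DESeq2 called 3 there, BC035044 being the other one, and 174 of all 19343 genes tested lower. Under anti-IL34 these 2 and BC035044 were called, 3 of the 6 that could be tested, where 0.525% of all genes were called lower. The same 3 genes had every library of the arm without IL-34 below every control library in each experiment, where 6.24% (KO) and 2.67% (antibody) of all genes tested had this. The genes were picked for these contrasts, so nothing is read from these calls, whether kept or lost. As a limit of the fits, the count of members called fell to 1 in the KO without Het animals 1 or 20 or any KO animal, where 55 to 95 genes in all were called lower in place of 119. Under the antibody it fell to 1 without anti-IL34 animal 11, where 22 in all were called lower in place of 90. With 1 animal left out the KO log2 fold change ran from -1.87 to -1.70 for Gm2629, -1.88 to -1.14 for BC035044 and -1.81 to -1.32 for 8030442B05Rik. Under the antibody it ran from -1.31 to -1.05, from -2.24 to -1.65 and from -2.17 to -1.89.

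In the isolates, Gm2629 was at 322, 422, 291 and 291 CPM in Het and at 111, 128 and 85.8 CPM in KO (log2 fold change -1.62, SE 0.220). Under anti-gp120 it was at 506, 465.9, 462 and 345 CPM and under anti-IL34 at 232, 181, 355 and 236 CPM (log2 fold change -0.81, SE 0.222). The KO and Het isolates were fully apart, while the isolate of anti-IL34 animal 11, at 355 CPM, lay above the lowest anti-gp120 isolate. BC035044 showed the same arrangement. It stood at 51.7, 52.2, 64.4 and 54.4 CPM in Het against 19.1, 18.03 and 18.4 CPM in KO (log2 fold change -1.56, SE 0.121). The anti-gp120 isolates were at 57.3, 42.7, 55.5 and 38.1 CPM and the anti-IL34 isolates at 24.7, 21.5, 43.0 and 25.6 CPM (log2 fold change -0.71, SE 0.220). Here too the value of anti-IL34 animal 11, 43.0 CPM, reached into the control range. 8030442B05Rik lay between 37.0 and 43.1 CPM in Het and between 10.9 and 14.7 CPM in KO (log2 fold change -1.57, SE 0.133) and between 41.2 and 52.5 CPM with anti-gp120 and 12.96 and 29.9 CPM with anti-IL34 (log2 fold change -1.21, SE 0.208), without overlap. Without animal 11 the antibody log2 fold changes of Gm2629, BC035044 and 8030442B05Rik were -1.17, -1.06 and -1.55. This is 1 of 8 fits that each left out 1 animal. It left out the highest anti-IL34 isolate of all 3 genes, which moves each value away from 0.

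**Figure D2:**
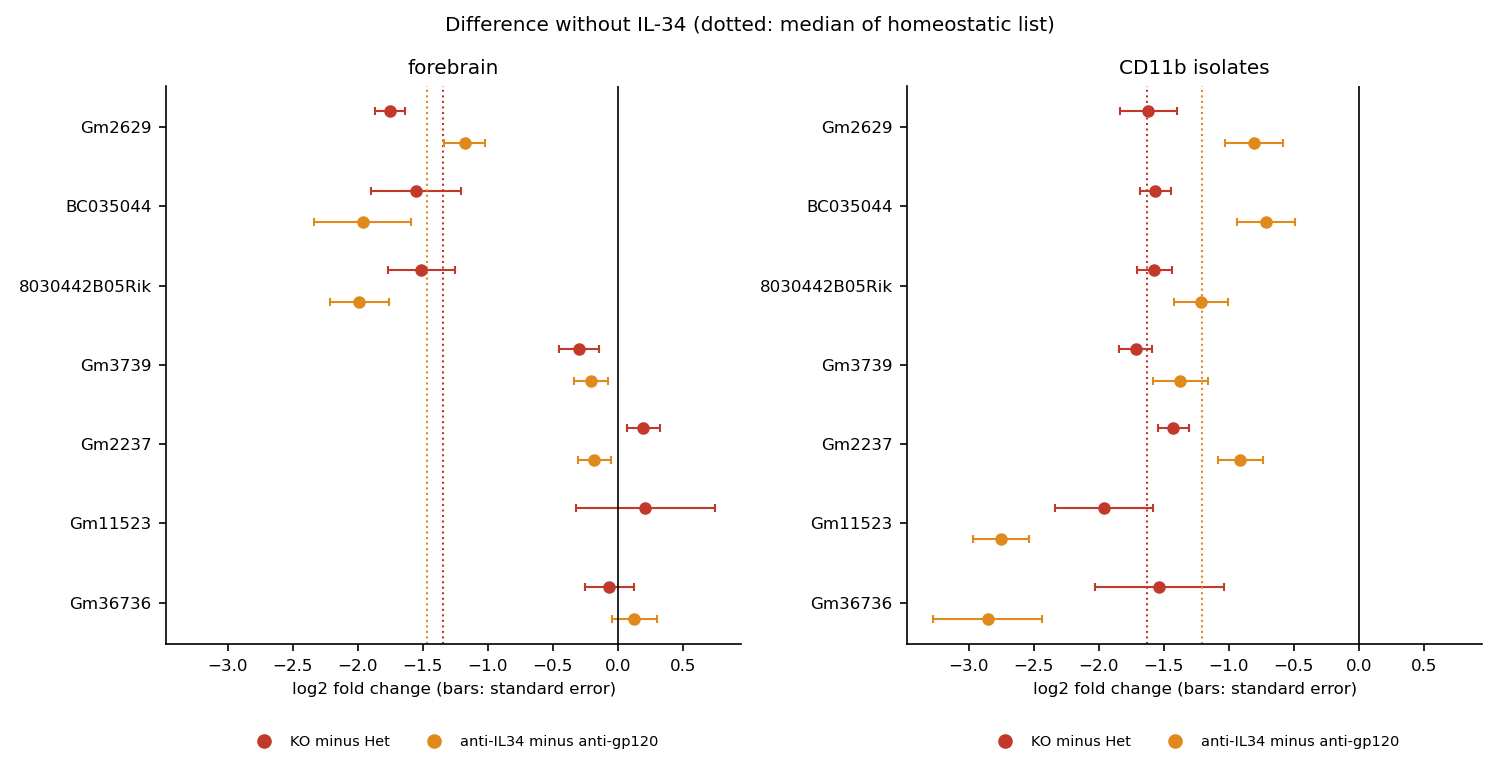
Fitted log2 fold change with its standard error for KO minus Het and anti-IL34 minus anti-gp120, in forebrain (left) and in CD11b isolates (right); dotted lines mark the median of the 17 homeostatic genes in the same contrast. In forebrain only Gm2629, BC035044 and 8030442B05Rik lie near the list's median, and in the isolates the values run from -0.71 to -2.85; Gm11523 was not tested in antibody forebrain.

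Named genes beside or across these 3 did not pass the threshold in the same contrasts. Kctd1, next to Gm2629, was at a log2 fold change of 0.00 (SE 0.067) in KO forebrain and 0.78 (SE 0.238) in KO isolates, with an adjusted edgeR p of 0.103 in the latter. Clec2i, which overlaps BC035044, was not tested in forebrain and had a log2 fold change of -0.13 (SE 0.377) in KO isolates and 0.24 (SE 0.544) in antibody isolates. Gm13293, inside 8030442B05Rik on the other strand, was at 1.05 (SE 0.384) and 0.59 (SE 0.363) in the same contrasts.

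The isolates themselves differed between arms in what they held. The summed level of the 17 homeostatic genes ran from 15269 to 25770 CPM in Het and 6380 to 6924 CPM in KO isolates, and from 19828 to 26125 CPM with anti-gp120 and 8879 to 13546 CPM with anti-IL34. Within the anti-IL34 arm the highest sum, 13546 CPM, was that of animal 11. The 5 excitatory neuron genes summed to 563 to 2189 CPM in Het and 1855 to 3285 CPM in KO isolates, and to 1020 to 3582 and 2854 to 4452 CPM in the antibody arms. The 5 astrocyte genes summed to 941 to 2689 CPM in Het and 3215 to 3450 CPM in KO isolates, and to 1272 to 4073 and 2454 to 4158 CPM in the antibody arms. The 5 oligodendrocyte lineage genes summed to 2735 to 9285 and 7369 to 16567 CPM, and to 3713 to 9243 and 5770 to 12241 CPM, in the same order. The median log2 fold changes of the neuron, astrocyte and oligodendrocyte lists were 0.99, 0.94 and 0.86 in KO isolates and 0.92, 0.66 and 0.69 in anti-IL34 isolates. In KO isolates 0 of these 15 genes passed by edgeR, 6 had an unadjusted p under 0.05 and DESeq2 called 5. Of all 18185 genes tested there, edgeR called 976, 5932 had an unadjusted p under 0.05 and DESeq2 called 3887. No gene of these lists was at 0 in every library of a group, and their part in the members' differences was not tested. The 6 choroid plexus genes varied within the anti-IL34 arm, summing to 8.76, 2195, 589 and 37.6 CPM in animals 2, 10, 11 and 24, against 4.57 to 9.67 CPM with anti-gp120. Their median log2 fold change was 3.21 there and -0.54 in KO isolates. In anti-IL34 isolates 0 of the 6 passed by edgeR, 6 had an unadjusted p under 0.05 and DESeq2 called 3. Of all 17570 genes tested there, 4559 had an unadjusted p under 0.05 and DESeq2 called 2015. The part of the choroid plexus list in the members' differences was not tested either. The 8 neutrophil and monocyte genes had medians of 0.31 in KO and 0.73 in anti-IL34 isolates. The list of 7 border macrophage genes stood at medians of -0.17 in KO and -0.47 in anti-IL34 isolates on the log2 fold change scale.

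Gm3739 and Gm2237 ran lower in the isolates without IL-34, while in forebrain their arms overlapped. The isolates held Gm3739 at 53.1, 60.6, 62.5 and 50.7 CPM in Het and at 18.2, 16.7 and 16.1 CPM in KO (log2 fold change -1.71, SE 0.127). With anti-gp120 it was at 56.1, 51.8, 46.9 and 41.6 CPM and with anti-IL34 at 15.7, 16.8, 27.6 and 14.6 CPM (log2 fold change -1.37, SE 0.210). Both pairs of arms were apart, and animal 11 was again the highest of its arm. For Gm2237 the Het isolates were at 32.9, 33.1, 38.0 and 31.9 CPM and the KO isolates at 12.4, 12.7 and 12.3 CPM (log2 fold change -1.43, SE 0.117). The antibody isolates were at 32.3, 27.6, 28.5 and 24.7 CPM (anti-gp120) and 14.5, 11.6, 19.4 and 13.6 CPM (anti-IL34), with a log2 fold change of -0.91 (SE 0.171) and no overlap. In forebrain Gm3739 stayed between 2.67 and 4.73 CPM and Gm2237 between 2.96 and 4.56 CPM over all 15 animals. Their log2 fold changes there were -0.30 (SE 0.154) and 0.20 (SE 0.126) in the KO, and -0.20 (SE 0.131) and -0.18 (SE 0.127) under the antibody.

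Because reads from the copies can be exchanged, the whole family of 74 genes was described too. Its summed level in forebrain ran from 26.7 to 34.5 CPM in Het and 28.6 to 31.9 CPM in KO. With the antibodies it ran from 31.735 to 33.5 CPM under anti-gp120 and from 28.6 to 31.653 CPM under anti-IL34, narrowly without overlap. In the isolates it ran from 169 to 206 CPM in Het and 64.7 to 79.5 CPM in KO, and from 133 to 194 CPM with anti-gp120 and 59.7 to 104 CPM with anti-IL34. The log2 ratio of the group means was -1.47 for the KO and -1.23 for the antibody in the isolates, and -0.09 in both experiments in forebrain. Without Gm3739 and Gm2237 the sum went in the isolates from 104.3 ± 13.2 CPM in Het to 41.04 ± 6.86 CPM in KO (SD, n = 4 and 3) and from 89.0 ± 16.3 to 37.3 ± 12.8 CPM in the antibody arms (SD, n = 4 each), log2 ratios of -1.35 and -1.25. Gm3739 and Gm2237 made up 46.6% ± 3.17 of the family's level in Het isolates (SD, n = 4) and 22.0% ± 0.753 in Het forebrain (SD, n = 4), so a larger share of the forebrain level came from other copies.

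Of the 25 other copies tested in KO isolates, 10 were called lower, where 5.22% of all genes were, and 22 were below 0, where 48.6% of all genes were, with a median of -1.23 on the log2 scale against 0.02 over all 18185 genes. In anti-IL34 isolates 22 of 24 were below 0, where 45.3% of all genes were, with a median of -1.17. Of these 24 copies edgeR called 0, 19 had an unadjusted p under 0.05 and DESeq2 called 13. Of all 17570 genes tested there, edgeR called 110, 4559 had an unadjusted p under 0.05 and DESeq2 called 2015. In forebrain 0 of 21 (KO) and 0 of 15 (antibody) were called by edgeR, with 0 and 1 at an unadjusted p under 0.05, 0 and 0 called by DESeq2, and medians of -0.07 and 0.00. The copies did not share one tissue pattern. In control animals 18 of the 26 others tested were higher in the isolates and 8 were higher in forebrain, where 40.8% and 43.3% of all genes were. Lamtor3l had the largest fitted difference toward the isolates (log2 4.81, SE 0.218) and Gm3696 toward forebrain (log2 -2.04, SE 0.163). Gm3164 (4.73, SE 0.296) and Gm2956 (4.55, SE 0.232) were too close to Lamtor3l to be ordered. In KO isolates Lamtor3l had a log2 fold change of -1.51 (SE 0.210) and Gm3696 of 0.27 (SE 0.430). The tissue and KO comparisons share the Het isolates.

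**Figure D3:**
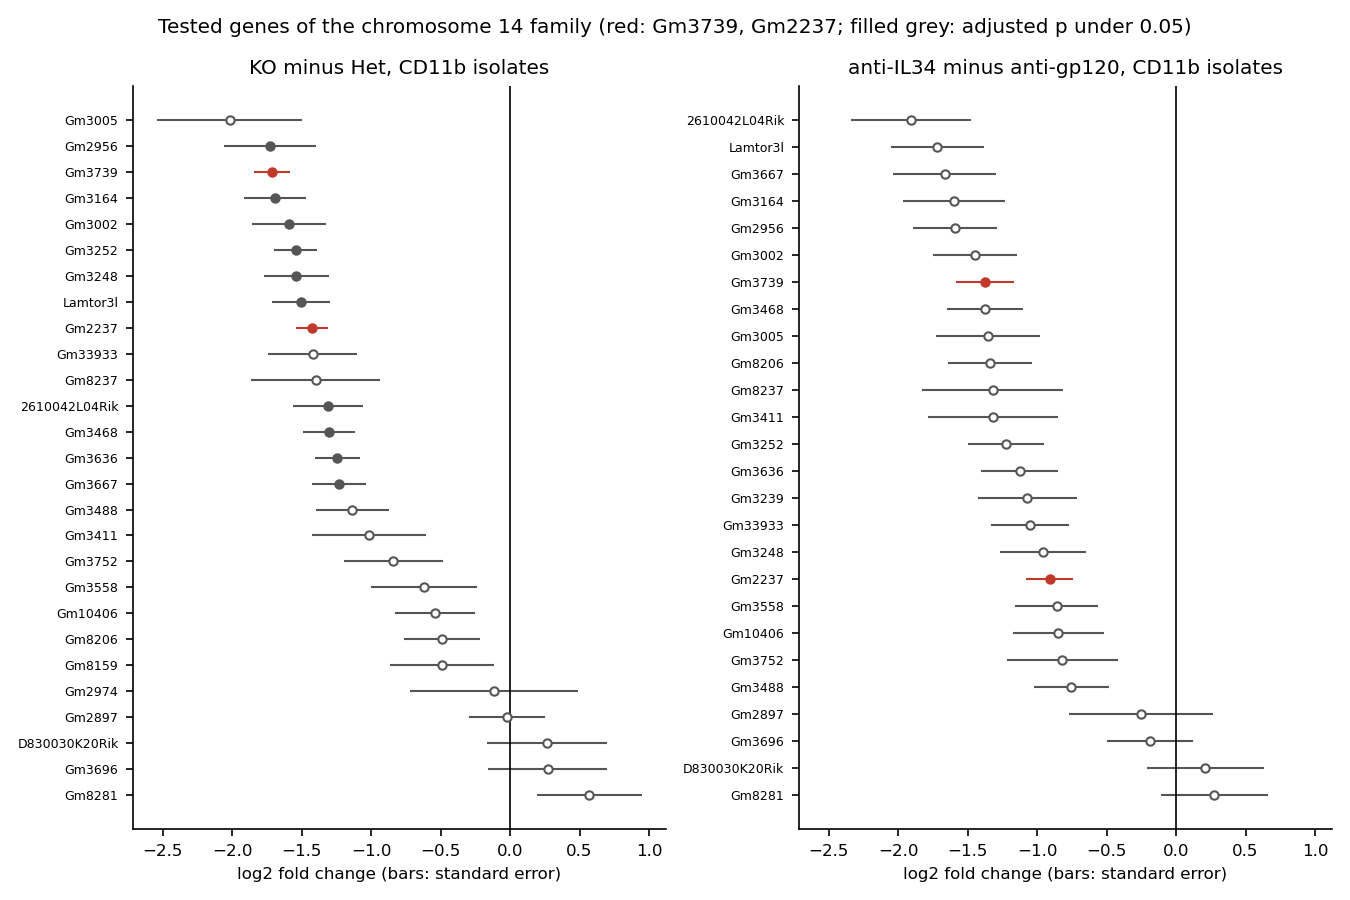
Log2 fold change with its standard error of every tested gene of the chromosome 14 family in the CD11b isolates, for KO minus Het (left, 27 genes) and anti-IL34 minus anti-gp120 (right, 26 genes), with Gm3739 and Gm2237 in red and, among the other copies, filled points for an adjusted p under 0.05. Most copies lie between -1 and -2, and a few, such as Gm8281 and D830030K20Rik, lie near or above 0 in both panels.

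Gm11523 was close to the detection limit in forebrain, with 0 to 15 counts per library in all 15 animals and 0 counts in anti-gp120 animal 8, where 3 counts would be 0.194 CPM, and its arms overlapped there. In the isolates it stood at 1.73, 3.48, 3.03 and 3.47 CPM in Het and at 0.647, 1.18 and 0.461 CPM in KO (log2 fold change -1.96, SE 0.378). With anti-gp120 it was at 6.64, 5.88, 5.52 and 6.79 CPM and with anti-IL34 at 0.762, 0.743, 1.26 and 0.751 CPM (log2 fold change -2.76, SE 0.215), a level of 14.8% of control. The highest anti-IL34 isolate, at 1.26 CPM, lay well under the lowest anti-gp120 isolate, at 5.52 CPM, and animal 11 again held the highest value of its arm. The change under the antibody was larger than the median of the homeostatic list in the same isolates, -1.21, by its fitted value, a difference that was not tested. Copz2 and Cdk5rap3, on either side, had log2 fold changes of -0.10 (SE 0.139) and -0.32 (SE 0.088) in antibody isolates and of 0.23 (SE 0.221) and -0.40 (SE 0.102) in KO isolates, none past the threshold.

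Gm36736 differed from the other 6 in having more RNA in forebrain than in the isolates. Forebrain levels overlapped between arms, from 1.97 to 2.61 CPM in Het, 1.71 to 2.695 CPM in KO, 2.29 to 2.91 CPM with anti-gp120 and 2.26 to 3.11 CPM with anti-IL34, and the log2 fold changes were -0.06 (SE 0.190) and 0.13 (SE 0.171). In the isolates it was counted rarely, with 13, 7, 9 and 23 reads in Het and 4, 10 and 5 reads in KO. Scaled, these were 0.777, 0.413, 0.317 and 0.582 CPM against 0.0996, 0.232 and 0.231 CPM (log2 fold change -1.53, SE 0.494). The anti-gp120 isolates held 37, 17, 9 and 18 reads (0.780, 1.06, 0.585 and 0.543 CPM) and the anti-IL34 isolates 3, 2, 5 and 2 reads (0.163, 0.0479, 0.106 and 0.125 CPM), a log2 fold change of -2.85 (SE 0.418). The arms did not overlap in either experiment, at counts so low that single reads move a library's value.

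The first exon of Gm36736, 276 bases, lies wholly within exon sequence of Hs3st2 on the opposite strand, as the map of the 2 genes shows. Over its span Gm36736 had 4.21% (median, n = 4) of the counts of Hs3st2 in anti-gp120 forebrain and 3.74% in Het forebrain. In the isolates the share was 5.68% in Het and 2.05% in KO, and 8.06% with anti-gp120 and 1.19% with anti-IL34 (medians). Hs3st2 itself had log2 fold changes of 0.35 (SE 0.218) in KO and 0.05 (SE 0.267) in antibody isolates, and its counts were 871 in Het and 1146 in KO isolates, against 52 and 19 for Gm36736. How many Gm36736 reads come from Hs3st2 was not tested.

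**Figure D4:**
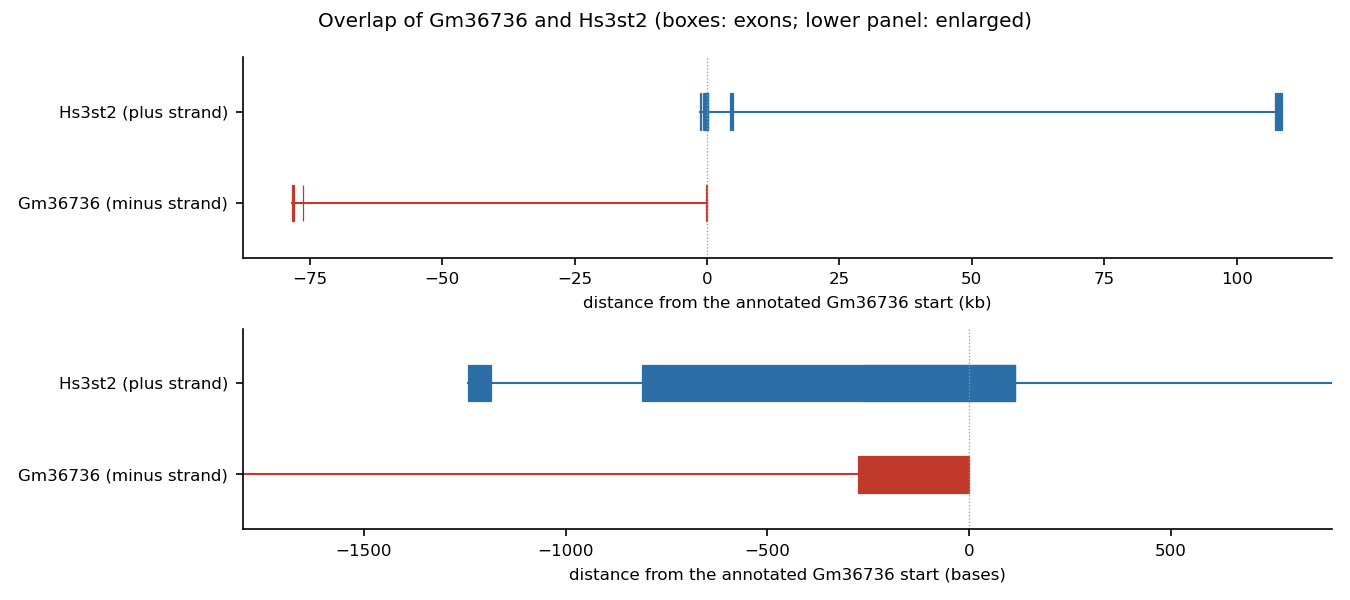
Positions of Gm36736 (minus strand, transcribed toward the left) and Hs3st2 (plus strand) as distance from the annotated Gm36736 start, in kb above and in bases around the start below; boxes are exons and lines are gene spans. The 276 bases of the first Gm36736 exon fall inside an Hs3st2 exon, and its other 2 exons lie at the far end of the gene.

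In KO isolates all 7 genes had every KO library below every Het library, where 20.0% of all genes tested had this, and 6 were called lower (all but Gm36736), where 5.22% were. In anti-IL34 isolates 5 were below without overlap, where 10.8% of all genes were, and 3 were called (Gm3739, Gm11523 and Gm36736), where 0.603% were. The choice of genes fixes these counts, and nothing is read from them, nor from the way they change between fits. As a limit of the fits, the calls in the isolates depended on single animals. Without Het animals 20 or 23, or any KO animal, 0 of the members and 0 of all genes passed in edgeR, although 2268 to 4465 genes had an unadjusted p under 0.05, and DESeq2 on all 7 animals called 2361 of 18185 genes lower, 6 members among them. The members' KO log2 fold changes in those fits still lay between -1.12 and -2.32. In anti-IL34 isolates all 7 were called without anti-IL34 animal 11, where 472 of all 17001 genes were called lower, and without anti-gp120 animal 15, where 3334 of 17071 were. Without anti-IL34 animals 2 or 10 or anti-gp120 animal 7, 0 members were called, among 1, 0 and 0 genes called lower in all. Without anti-IL34 animal 24 or anti-gp120 animals 1 or 8, 1 member was called, among 5, 4 and 4 genes in all.

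Since the Het and anti-gp120 arms were not contrasted with each other to pick the genes, that comparison was tested. Its limits are that genotype, antibody treatment and experiment cannot be told apart in it, and that both arms serve as controls above. In forebrain 1 of 6 genes tested, Gm2629, was lower in Het (59.97% of anti-gp120, log2 fold change -0.74, SE 0.092, adjusted edgeR p 0.00299, all 4 Het animals below all 4 anti-gp120 animals), where 0.62% of all genes tested were lower. It held in 8 of 8 fits without 1 animal, with adjusted edgeR p between 0.000785 and 0.0188. BC035044 (-1.05, SE 0.244, adjusted edgeR p 0.0844) and 8030442B05Rik (-0.78, SE 0.178, adjusted edgeR p 0.0761) did not pass. The arms of all 3 genes did not overlap, where 3.09% of all genes tested lay lower in Het without overlap. DESeq2 and edgeR without the filter on low counts called all 3, among 297 of 19209 and 594 of 31223 genes called lower. The homeostatic list had a median of -0.81 with 14 of 17 genes lower, the neutrophil and monocyte list a median of -1.43 over the 4 genes tested, the choroid plexus list a median of 1.42, and Il34 itself stood lower in Het at -0.75 (adjusted edgeR p 0.00206, SE 0.088). Gm3739, Gm2237 and Gm36736 stood at -0.21, -0.07 and -0.25 and did not pass.

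In the isolates 0 of the 7 passed between the control arms by edgeR, where 1.94% of all genes did in either direction. An unadjusted edgeR p under 0.05 was found for 2 of the 7, and for 1568 of all 17140 genes. These 2 were Gm2237, higher in Het (log2 fold change 0.27, SE 0.1135), and Gm11523, lower in Het. DESeq2 called 1, Gm11523, and 748 of all 17140 genes. Gm11523 was at 46.7% of its anti-gp120 level in Het (log2 fold change -1.10, SE 0.229, adjusted edgeR p 0.0617). Its 4 Het isolates all lay below the 4 anti-gp120 isolates, as in 2.14% of all genes tested. The homeostatic list had a median of -0.22 there, with 0 of 17 genes past the edgeR threshold, 1 at an unadjusted p under 0.05 and 0 called by DESeq2. The choroid plexus list summed to 1683 to 3886 CPM in Het and 4.57 to 9.67 CPM in anti-gp120 isolates, and the 8 neutrophil and monocyte genes to 39.6 to 56.5 CPM in Het and 48.5 to 323 CPM in anti-gp120 isolates. The latter list had a median of -1.43, with 0 genes past the edgeR threshold, 4 at an unadjusted p under 0.05 and 3 called by DESeq2. The part of either list in the Gm11523 difference was not tested.

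**Figure D5:**
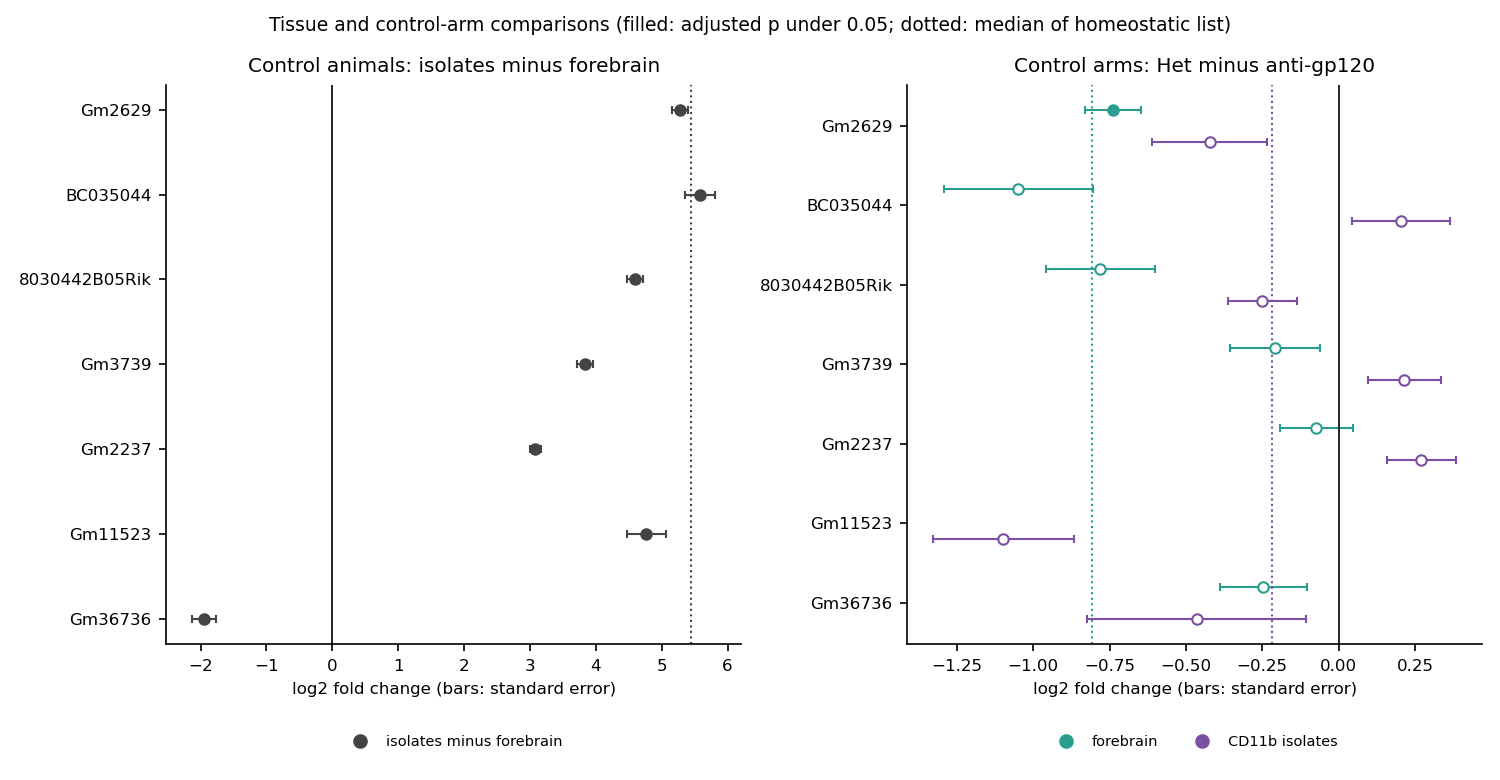
Log2 fold change with its standard error for CD11b isolates minus forebrain in the 8 control animals (left) and for Het minus anti-gp120 in forebrain and isolates (right); filled points had an adjusted p under 0.05 and dotted lines mark the median of the 17 homeostatic genes. Gm36736 alone lies left of 0 in the tissue panel, and Gm2629 in forebrain is the filled point in the control-arm panel.

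Sex made no difference that passed the test. Over all arms 0 of 6 genes in forebrain and 0 of 7 in the isolates differed between females and males by edgeR, 1 (Gm2237) and 0 had an unadjusted p under 0.05, and DESeq2 called 0 in each. Of all genes tested, edgeR called 0.0747% in forebrain and 0.0507% in the isolates. The log2 differences lay between -0.21 and 0.36.

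Over the 15 isolates Pearson's r between the levels of the 7 genes ran from 0.64 (Gm2629 and Gm36736) to 0.98 (Gm3739 and Gm2237) over the 21 pairs and a median of 0.84. These values describe libraries that share their arm, animal and makeup. The arm differences for which the genes were chosen enter these values. After each group's mean was taken out the 6 pairs with Gm36736 lay between -0.16 and 0.22, and the other pairs between 0.34 and 0.93. Among 18731 other genes, those most like Gm3739 were Gm33699, Gm2237 and Ints6l (r 0.98 each), and those most like Gm2237 were Gm3739, Rnf111 and Ptgs1 (r 0.98 each). BC035044 was most like Disc1, Zfp175 and Susd3 (r 0.98 each), and Gm2629 was most like C5ar2, Slco4a1 and Cmklr1 (r 0.98, 0.98 and 0.97). 8030442B05Rik was most like Slc25a37, Chd9 and Pmepa1 (r 0.98, 0.97 and 0.97), Gm11523 like Gm13209, Mlec and Tnrc6b (r 0.97, 0.96 and 0.96), and Gm36736, with the fewest counts in the isolates, like Scamp5, Acss1 and Ears2 (r 0.90 each).

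Genes with provisional names were called lower at smaller shares than the others, with no account taken of their levels. The class was set by the form of the name alone. Symbols of a C or D followed by digits can fall in it, and genes without a symbol count among the others. In KO isolates 2.3% of 3088 tested genes with such names were called lower, against 5.82% of the 15097 others, and in KO forebrain 0.148% against 0.739%. In anti-IL34 isolates the shares were 0.438% and 0.634%, and in antibody forebrain 0.144% and 0.599%.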

How the data were processed

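RNA was sequenced from 30 libraries of 15 mice, whole forebrain and CD11b isolates, made with the SMART-Seq v4 kit per the labels' protocols. The authors deposited whole-number read counts per gene, not normalized. The submitters' processing notes name STAR 2.7.5c, featureCounts 1.6.3, R 4.4.0 and GRCm38. A deposited Length value, of another unit, is the gene span for 51183 of 51498 identifiers found in GENCODE M21, and other columns of counts, 6 in number, matched no labelled sample and were not used. The members and gene lists were chosen with earlier results of these data known.

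Counts were fitted with edgeR 4.0.16 (R 4.3.3): TMM scaling, filterByExpr, quasi-likelihood F test, sex as covariate (experiment and sex for the tissue contrast), p-values adjusted by Benjamini-Hochberg over all genes tested, threshold 0.05. SE is the log2 fold change over the square root of F. Each contrast used only its own groups. Copies were found with BLAST 2.17.0. Named genes are the 7 members, overlapping and neighbouring genes, copies, Il34 and the 3 genes most correlated with each member. On simulated counts for KO minus Het in isolates (18185 genes) the fit recovered 17.2% of changes of 1 log2 unit and 76.2% of changes of 2, with 3 false calls. Forebrain and isolate libraries with the same number come from the 2 hemispheres of 1 animal, per the series' design text and the labels, and their deviations from group means correlated by 0.0394 to 0.172 (above 0.1 in 9 of 15 animals). The animal was a replicate block in an alternative to the tissue contrast. Replicates are separate animals. Alternatives were RLE scaling, no filter, DESeq2 1.42.0, no sex term, each animal left out, and 95% identity for copies. Total counts of 15064391 to 75158213 per library make values under about 0.2 CPM rest on a few reads.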

Additional observations from a re-analysis of the deposited data

Results flagged for a closer look

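For 2 of 42 groups of 4 libraries examined, 1 library stood further from the rest than Dixon's 95% limit allows, which chance gives in about 1 group in 20. Both were the isolate of anti-IL34 animal 11, the only female of its arm. It held Gm3739 at 27.6 CPM, against 14.6 to 16.8 CPM in the other 3, and Gm11523 at 1.26 CPM, against 0.743 to 0.762 CPM.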

How the results depend on the processing

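The 7 tissue calls were the same under RLE scaling, without the filter on low counts, in DESeq2, with each animal left out and in a fit with a replicate block for the animal (log2 from -1.95 for Gm36736 to 5.59 for BC035044, 7 of 7 called), and the block changed no call. Counts of members called moved elsewhere. In KO forebrain the count of 2, among 119 genes called lower in all, became 3 without the filter (343) and in DESeq2 (174), with BC035044 added. In anti-IL34 isolates the count of 3, among 106 called lower in all, became 6 without the filter on low counts (697), 6 in DESeq2 (1455) and 5 without the sex term (822). Between Het and anti-gp120 it went in forebrain from 1 (119 lower in all) to 3 without the filter (594) and 3 in DESeq2 (297), and in isolates from 0 (9) to 1 without the filter (109), in DESeq2 (124) and without the sex term (18). With each animal left out in turn, the count of members called ran from 1 to 2 in KO forebrain, where 55 to 117 genes in all were called in either direction, and from 0 to 6 in KO isolates (0 to 5756 in all). It ran from 1 to 3 in anti-IL34 forebrain (25 to 126 in all, 1 member without anti-IL34 animal 11), 0 to 7 in anti-IL34 isolates (0 to 6905 in all, 7 members without anti-IL34 animal 11 or anti-gp120 animal 15) and 1 to 2 between the control arms in forebrain (67 to 415 in all). Fewer samples enter these fits, and why the isolate calls swing so widely was not tested.

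Over all genes and in either direction, edgeR called 976 in KO isolates (784 under RLE scaling, 1993 without the filter, 3887 in DESeq2, 2189 without the sex term) and 110 in anti-IL34 isolates (819, 2015 and 983 without the filter, in DESeq2 and without the sex term). In forebrain it called 120 in the KO (381 without the filter, 178 in DESeq2) and 123 under the antibody (349 and 198). Between the control arms it called 157 in forebrain (919 and 425) and 333 in isolates (720 and 748, and 67 to 329 with an animal left out). DESeq2 gave no adjusted p for Gm36736 in either loss contrast in isolates.

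With an animal left out, some small differences changed sign. In KO forebrain these were Gm11523 (-0.20 to 0.85) and Gm36736 (-0.43 to 0.12), neither of them called. Others were Gm2237 between the control arms in forebrain (-0.13 to 0.0062) and the sex differences of BC035044 (-0.21 to 0.14), Gm2629 (-0.0389 to 0.0451), 8030442B05Rik (-0.14 to 0.0595) and Gm36736 (-0.0192 to 0.19) in forebrain. In isolates they were the sex differences of Gm3739 (-0.17 to 0.11), Gm2237 (-0.12 to 0.0793), BC035044 (-0.11 to 0.19), Gm2629 (-0.0366 to 0.22), 8030442B05Rik (-0.12 to 0.19) and Gm36736 (-0.30 to 0.0773). The members' log2 fold changes in KO isolates and in anti-IL34 isolates were below 0 in every fit that tested them. Gm36736 was not tested in KO isolates without Het animal 23, nor in anti-IL34 isolates without anti-gp120 animal 1. Depth limits Gm11523 in forebrain and Gm36736 in isolates, where libraries held as few as 0 and 2 counts. Summing the family in place of Gm3739 and Gm2237, an alternative chosen after seeing the data, gave log2 ratios of -1.47 in KO and -1.23 in anti-IL34 isolates, and -1.35 and -1.25 with these 2 genes left out of the sum.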
